A study of Homo sapiens with 2 samples.

Results

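The aminoacyl-tRNA synthetases and the auxiliary proteins of their cytosolic complex were examined in HT-29 cells, a human colorectal adenocarcinoma line, grown in 2 ways. The genes were taken from a list of 38 symbols, which holds 19 genes of cytosolic enzymes, 16 of mitochondrial enzymes and 3 auxiliary proteins. Of these, 33 had a probe set of their own, among 19775 such genes on the array. Monolayer cells (1 array) were cultured in DMEM/F-12 with 10% fetal bovine serum. Spheroids (1 array) were formed from the same line on low-adhesion plates in stem cell media with B27, epidermal growth factor and fibroblast growth factor and were taken on day 5. Both carry no genetic change or drug treatment by their labels, and the medium, the plate and the growth form differ together and cannot be told apart. The values are MAS5 signals, intensities on a linear scale from Affymetrix Human Genome U133 Plus 2.0 arrays, and every difference below is log2 of the spheroid signal minus log2 of the monolayer signal. With 1 array per condition there is no replicate check, no test was run, and every value compares these arrays and not the conditions.

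Each aminoacyl-tRNA synthetase joins an amino acid to its own tRNA, so that the ribosome reads the codon correctly. Most amino acids have one enzyme for the cytosol and another, encoded by a separate nuclear gene, for the mitochondrion. Glycine and lysine are exceptions, since GARS1 and KARS1 each encode the enzyme of both compartments. Several cytosolic enzymes are held in a multi-synthetase complex by the scaffold proteins AIMP1, AIMP2 and EEF1E1. Many of the cytosolic genes are known targets of ATF4, the transcription factor of the amino acid response, which binds C/EBP-ATF response elements.

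The core of that element, TGATGNAA with N for any base, was searched on both strands of the RefSeq promoter windows (GRCh38.p14), which run from 250 bases before to 50 bases after each transcription start. On the other strand it reads TTNCATCA, and no other motif was searched. It was found for 7 of the 16 cytosolic synthetase genes with a window and for 1 of the 14 mitochondrial ones, beside 4.46% of the 27305 genes with a window. Of the cytosolic genes, 13 are known from earlier work on other cells as responsive to ATF4. All 7 matches lay among the 10 of these with a window, and 0 of the other 6 cytosolic genes held one. The matches are shown because they mark which of these genes carry the letters of the element. They are descriptions of sequence and not binding sites. Each line gives 30 bases, 5′ to 3′ on the strand of the gene, with the match in capitals, and ASNS, the asparagine synthetase gene in which this element is well known, stands last for comparison.

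AARS1 (chr16:70289675-70289704, minus strand): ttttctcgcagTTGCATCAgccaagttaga
CARS1 (chr11:3057407-3057436, minus strand): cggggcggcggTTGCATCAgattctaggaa
GARS1 (chr7:30594834-30594863, plus strand): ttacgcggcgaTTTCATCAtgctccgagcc
IARS1 (chr9:92293692-92293721, minus strand): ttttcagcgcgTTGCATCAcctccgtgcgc
MARS1 (chr12:57488053-57488082, plus strand): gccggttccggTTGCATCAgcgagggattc
NARS1 (chr18:57621804-57621833, minus strand): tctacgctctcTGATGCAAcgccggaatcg
TARS1 (chr5:33440956-33440985, plus strand): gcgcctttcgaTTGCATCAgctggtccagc
YARS2 (chr12:32756076-32756105, minus strand): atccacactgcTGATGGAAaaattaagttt
ASNS (chr7:97872458-97872487, minus strand): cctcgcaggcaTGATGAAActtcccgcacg

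In AARS1, CARS1, IARS1, MARS1 and TARS1 the match reads TTGCATCA, and NARS1 holds the same letters on the other strand. The matches of GARS1, IARS1, MARS1, CARS1, TARS1 and NARS1 begin between 33 bases before and 15 bases after the start (position -33 to position 15). That of AARS1 begins at position -187 and that of YARS2 at -197.

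**Figure D1:**
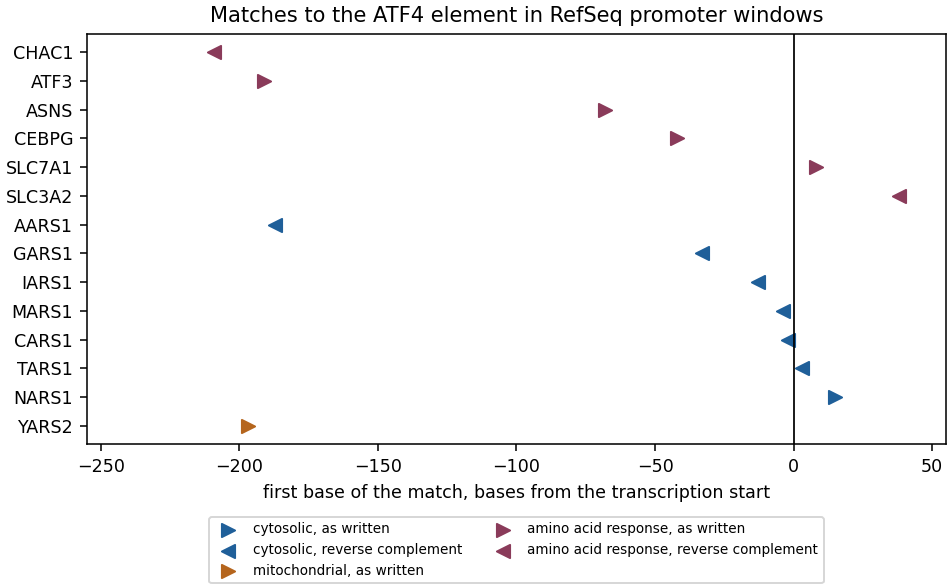
Position of the first base of each match to the ATF4 element core in the promoter windows, in bases from the transcription start (horizontal axis), for synthetase genes (blue cytosolic, brown mitochondrial) and other amino acid response genes (purple). Arrowheads show the strand of the match, and 6 of the 7 cytosolic matches lie between position -33 and position 15.

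On the arrays, 2-fold differences between spheroids and monolayer were rare among synthetase genes, and they were rare among all genes too. Of the 17 measured cytosolic enzymes 0 were 2-fold higher and 0 were 2-fold lower, and of the 15 measured mitochondrial enzymes 0 were higher and 1, PARS2, was lower. Over all 13183 genes above a floor on 1 or both arrays, 2.53% were 2-fold or more higher in spheroids and 3.08% were 2-fold or more lower. The floor is a signal of 62.7, the median of all signals, and the 33 synthetase and AIMP1 genes were above it on both arrays. At a 1.5-fold limit 0 of the 33 were higher and 3 were lower, VARS1, YARS2 and PARS2, beside 9.53% and 11.6% of all measured genes. Among the 4785 genes at least as bright as the dimmest cytosolic enzyme, 5.94% were 1.5-fold higher and 5.79% lower. Of the same genes 54 were 2-fold higher and 29 were 2-fold lower. Counts this small over 33 genes do not set the group apart from all genes. These counts depend on the scaling and the probe set. Scaling to the hybridisation spike-ins gave 1 higher (AARS2) and 1 lower, median scaling 0 and 6, and the probe set with the largest difference 3 higher (YARS1, EARS2 and AIMP1) and 5 lower. That probe set of EARS2 was under the floor in monolayer (54.9) and at 100.8 in spheroids, and that of YARS1 was dim (104.4 and 178.6).
The median difference was -0.128 over the cytosolic and -0.132 over the mitochondrial enzymes, and -0.05 over all measured genes. Relative to the median of all genes, both lay under 0 in each of the 11 other settings tried for scaling, floor and probe set, from -0.12 to -0.015. All 18 probe sets of the hybridisation spike-ins were lower on the spheroid array, by a mean of -0.25, and scaling to them put the medians at 0.12 and 0.11 and that of all genes at 0.18. The sign of these small medians is thus set by the scaling. The SD over the genes was 0.27 for the cytosolic and 0.42 for the mitochondrial enzymes. It was 0.51 over all measured genes and 0.39 over genes at least as bright as the dimmest cytosolic enzyme. As a yardstick, probe sets of one gene differed with an SD of 0.41 (5506 genes). It describes the spread between probe sets on the same arrays. It does not hold the spread between arrays or cultures, which 1 array per condition cannot show. Of the 17 cytosolic enzymes 3 (VARS1, SARS1 and NARS1) lay farther than 0.41 from 0, and of the 15 mitochondrial ones 4 (PARS2, YARS2, EARS2 and FARS2). The share was 35.9% of all measured genes and 24.8% of genes at least as bright as the dimmest cytosolic enzyme. Several mitochondrial enzymes, PARS2 and FARS2 among them, are dimmer than that.

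**Figure D2:**
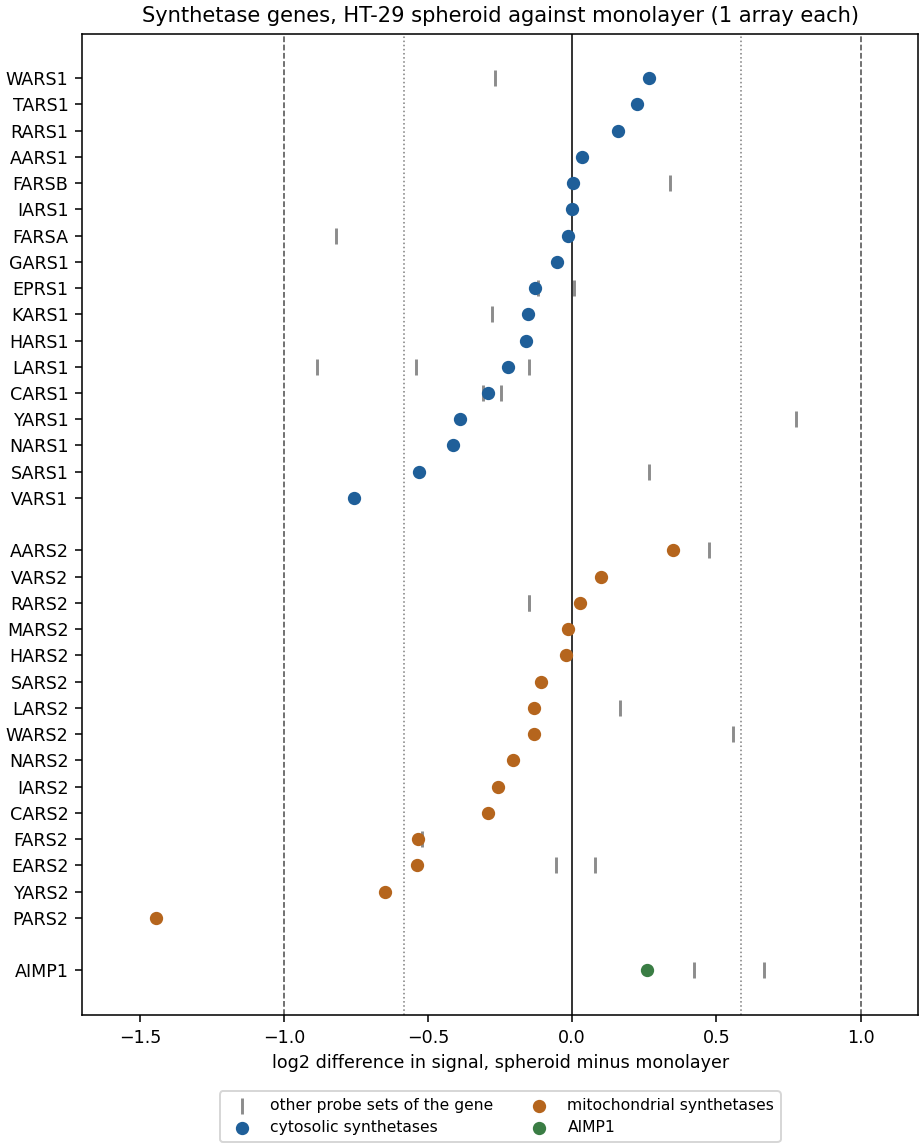
Log2 of spheroid over monolayer signal (horizontal axis) for the 33 genes, from 1 array per condition. Dots show the brightest probe set of a gene and grey ticks its others above the floor, dotted lines mark 1.5-fold and dashed lines 2-fold, and PARS2 at -1.44 alone passes a dashed line.

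The enzymes of the multi-synthetase complex lay close to 0, with an SD over the 5 genes of 0.15, beside 0.31 over the 12 cytosolic enzymes outside it. IARS1, the isoleucyl-tRNA synthetase, gave nearly one signal, 16323 in monolayer and 16327 in spheroids. EPRS1, which charges both glutamate and proline tRNAs, went from 7487 to 6851 (difference -0.13), and KARS1, the lysyl enzyme, from 30401 to 27326 (-0.15). These spheroid signals are at or just under the monolayer ones. LARS1, the leucyl enzyme, which also serves as a leucine sensor for mTORC1, was at 4897 and 4196 (-0.22). All 4 of its probe sets were lower, the farthest at -0.88. RARS1, the arginyl enzyme, was the highest of the complex enzymes, with 9101 in monolayer and 10170 in spheroids (0.16). The 5 measured enzymes of the complex spanned -0.22 to 0.16. MARS1 and QARS1 belong to the complex too, but every probe set assigned to them is also assigned to a miRNA gene inside them, and so no value is given.
AIMP1, the scaffold that is also the precursor of a secreted cytokine, had signals of 2831 in monolayer and 3390 in spheroids, a difference of 0.26. Its 3 probe sets were all higher, up to 0.66. For AIMP2 and EEF1E1 no probe set of their own was found in the annotation used here.

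Among the 12 cytosolic enzymes outside the complex, 4 were above and 8 under 0, from -0.76 to 0.27. VARS1, the valyl enzyme, was the lowest of all cytosolic genes, with 1515 in monolayer and 897.3 in spheroids. It was 1.69-fold lower, and 6.85% of measured genes lay further down. Its other probe set was under the floor on both arrays. SARS1, the seryl enzyme, went from 5233 to 3622, 1.44-fold lower, but a dimmer probe set went from 440.5 to 529.7 (0.27). NARS1, the asparaginyl enzyme, went from 14007 to 10525 (-0.41) by its single probe set. These are the largest gaps in the cytosolic group, and the probe sets of SARS1 do not point one way.
YARS1, the tyrosyl enzyme, was at 6357 and 4852 (-0.39), while its dim second probe set was at 104.4 and 178.6 (0.78). CARS1, the cysteinyl enzyme, was at 9081 and 7423 (-0.29), and its 3 probe sets above the floor lay between -0.25 and -0.31. The probe sets of CARS1 thus gave nearly one value, and those of YARS1 opposite ones. HARS1, the histidyl enzyme, was at 4303 and 3847 (-0.16), and GARS1, the glycyl enzyme, at 10536 and 10150 (-0.05).
FARSA and FARSB encode the chains of the cytosolic phenylalanyl enzyme, which works only as their assembly. FARSA was at 1379 in monolayer and 1366 in spheroids, and FARSB at 5001 and 5011. Both chains had nearly equal signals on the arrays. A second probe set of FARSA was lower, at -0.82, and a second one of FARSB higher, at 0.34. AARS1, the alanyl enzyme, was at 3848 and 3942 (0.03). TARS1, the threonyl enzyme, went from 8823 to 10298 (0.22). WARS1, the tryptophanyl enzyme, which interferon-gamma induces in many cells, went from 1335 to 1605 (0.27), the highest of the cytosolic group. Its other probe set went from 648.8 to 538.7 (-0.27), so that the direction of WARS1 rests on the probe set.

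**Figure D3:**
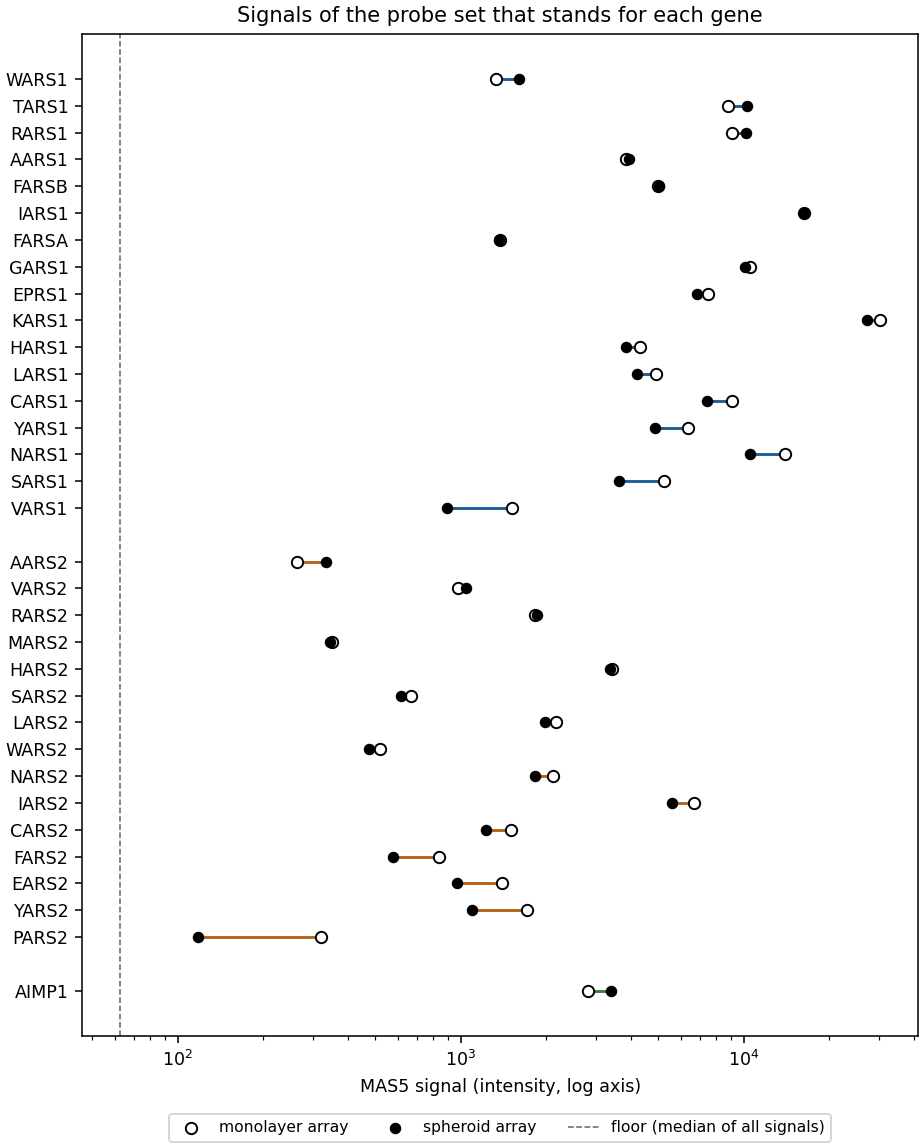
MAS5 signals (horizontal log axis) of the probe set that stands for each gene, open circles for the monolayer and filled circles for the spheroid array, with the line between them coloured by group (blue cytosolic, brown mitochondrial, green AIMP1). Positions of different genes are not comparable levels, and within a gene the circles of IARS1, FARSB and FARSA coincide while those of PARS2, at 321.9 and 118.2, lie farthest apart.

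Mitochondrial enzymes were mostly under 0, with 12 of 15 lower in spheroids (80%, beside 54.8% of all measured genes). That count includes HARS2 (-0.02) and MARS2 (-0.015), which were close to 0, and it depends on the settings. With the median over the probe sets of a gene, CARS2 and WARS2 were at 0, EARS2 at 0.011 and LARS2 at 0.017. A probe set under the floor on both arrays counts as 0 in that median, and the 0 of CARS2 and of WARS2 is such a value. The only probe set of CARS2 measured on both arrays was at -0.29. Scaling to the hybridisation spike-ins put the median of the group above 0, at 0.11. PARS2, the mitochondrial prolyl enzyme, gave 321.9 in monolayer against 118.2 in spheroids. It was 2.72-fold lower, and 0.721% of measured genes lay further down. Only 1 probe set measures PARS2, and its spheroid signal is within 2-fold of the floor but above 89.2, the 95th percentile of signals from 135 olfactory receptor probe sets. With the floor at the 75th percentile of all signals (386.0) the gene is not measured.
YARS2, the mitochondrial tyrosyl enzyme, was at 1716 and 1094, 1.57-fold lower, also by a single probe set. FARS2, the phenylalanyl enzyme of mitochondria, was at 838.2 and 577.8 (-0.54), and its second probe set was at -0.52. EARS2, which charges glutamate, went from 1405 to 968.3 (-0.54). Of its dimmer probe sets, those measured on both arrays were at -0.06 and 0.08, so that the low value rests on the brightest one. CARS2 went from 1507 to 1232 (-0.29) and IARS2 from 6704 to 5603 (-0.26). NARS2 was at 2117 and 1835 (-0.21). Each of these 3 lay within the spread between probe sets.
WARS2 was at 518.8 and 473.4 (-0.13), with a second probe set at 0.56, and LARS2 at 2177 and 1987 (-0.13), with a second one at 0.17. SARS2 was at 666.3 and 617.4 (-0.11). HARS2 (3422 and 3370) and MARS2 (350.4 and 346.7) had nearly equal signals on the arrays. HARS2 lies beside HARS1 in the genome, and the pair had differences of -0.16 (HARS1) and -0.02 (HARS2). RARS2 was at 1836 and 1870 (0.03) and VARS2 at 977.9 and 1048 (0.10). AARS2, the mitochondrial alanyl enzyme, was the highest of all members at 263.6 and 335.9 (0.35), and its other probe set was at 0.48. TARS2 has 1 probe set, which is assigned to a miRNA gene as well, and no value is given.

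Set side by side by amino acid, cytosolic and mitochondrial enzymes did not differ in one direction. Among 11 amino acids with 1 measured gene in each compartment, the mitochondrial enzyme had the lower difference for 5 and the cytosolic for 6. The median of the mitochondrial minus the cytosolic difference over these pairs was 0.09. Both enzymes were under 0 for 6 amino acids (cysteine, histidine, leucine, asparagine, serine and tyrosine) and above 0 for 2 (alanine and arginine). Tyrosine had the lowest pair, YARS1 at -0.39 and YARS2 at -0.65. Cysteine, counted among the 5, had nearly equal values, CARS1 and CARS2 both at -0.29 with a gap of -0.0002. Valine had the widest gap, 0.86, with VARS1 at -0.76 and VARS2 at 0.10. Only valine and serine (0.42) had a gap wider than the spread of 0.41 between probe sets. That spread describes single values, and a gap joins 2 of them. Across the 11 pairs Pearson's r was 0.18 and Spearman's rho 0.13, a description of points that share the same arrays.
For glutamate and proline the cytosolic partner is the joint enzyme EPRS1, and for phenylalanine it has 2 chains. There the mitochondrial gene was the lower one each time, with a mitochondrial minus cytosolic difference of -0.41 for EARS2, -1.32 for PARS2, and -0.52 and -0.54 for FARS2 against FARSA and FARSB. The enzymes also fall into structural classes I and II, which differ in the fold of the catalytic domain. The median difference was -0.18 over 8 cytosolic enzymes of class I and -0.05 over 9 of class II, and -0.13 and -0.16 over 9 and 6 mitochondrial ones.

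**Figure D4:**
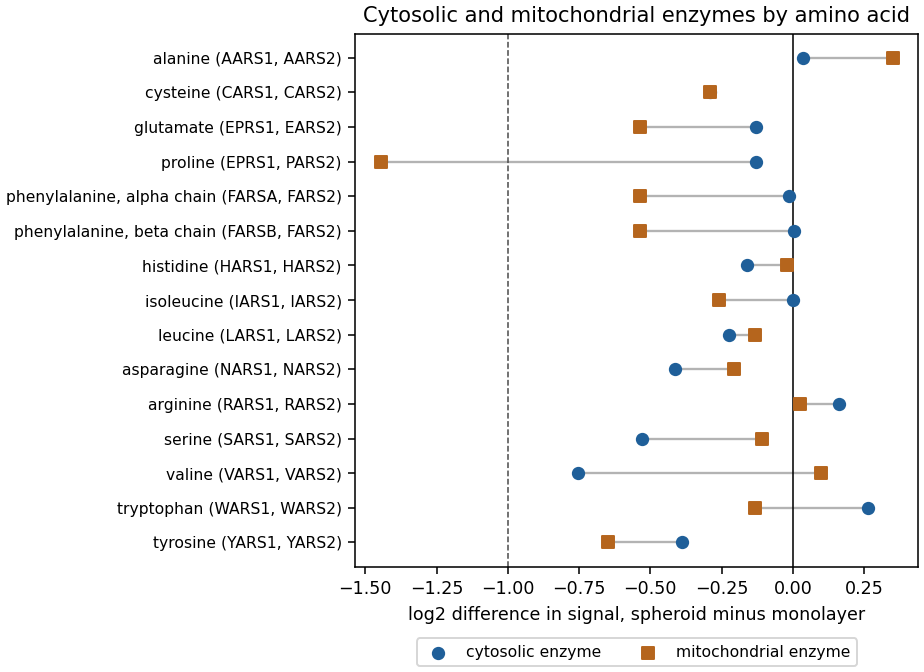
Log2 difference in signal between the spheroid and the monolayer array for the cytosolic (blue circles) and the mitochondrial enzyme (brown squares) of each amino acid, joined by a grey line, with the dashed line at 2-fold lower. EPRS1 is drawn for glutamate and for proline and FARS2 for both chains of the cytosolic phenylalanyl enzyme, and the widest gaps are those of proline and valine.

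Partners of the synthetases were examined as well. Of 13 listed genes that help to charge or export tRNAs 10 were measured, with a median of 0.14. Of the 10, 0 were past 2-fold either way, beside 2.53% higher and 3.08% lower of all measured genes. TRNT1, which adds the CCA end that synthetases charge, went from 1304 to 1842 (0.50), and MTFMT, which formylates the initiator methionyl-tRNA of mitochondria, from 2001 to 1458 (-0.46). XPOT, which exports tRNAs from the nucleus, was at 5573 and 6201 (0.15). QRSL1, GATB and GATC, the subunits of the amidotransferase that makes mitochondrial glutaminyl-tRNA in place of a synthetase, were at -0.11, 0.12 and 0.20.

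The genes of the amino acid response lay on both sides of 0, with 12 above and 15 under it. Of 27 measured genes of that list 0 were 2-fold lower and 6 were at least 2-fold higher in spheroids, beside 2.53% of all measured genes. The 6 were the stress factors DDIT3 and ATF3, the glutathione-degrading enzyme CHAC1, the mTORC1 inhibitor DDIT4, the secreted glycoprotein STC2 and the cystine transporter SLC7A11. DDIT3 went from 603.7 to 2769 (2.20) and ATF3 from 1052 to 2597 (1.30). CHAC1 was dim, at 97.6 in monolayer, within 2-fold of the floor, and at 208.2 in spheroids (1.09). ATF4 itself was at 18275 and 20735 (0.18), a measure of mRNA and not of its protein, which is controlled in translation. The enzymes of amino acid synthesis in the same list were all under 0, with a median of -0.32 over 9. ASNS, the asparagine synthetase, was at 8928 and 6867 (-0.38) and CTH, of cysteine synthesis, at 2452 and 1478 (-0.73). The 12 measured synthetases known as ATF4-responsive had a median of -0.18 and lay between -0.76 and 0.27, and the other 5 cytosolic enzymes had a median of -0.01. The groups within the amino acid response were formed after their values were seen.
Of the genes whose promoter sequences are printed above, none that was measured was 1.5-fold higher in spheroids, beside 9.53% of all measured genes. Among them YARS2 was past 1.5-fold lower, beside 11.6% of all measured genes. At those shares, so few genes say nothing about genes with the element. AARS1, CARS1, GARS1, IARS1, NARS1 and TARS1 lay between -0.41 and 0.22, YARS2 was at -0.65 and ASNS at -0.38. ATF3, CHAC1 and CEBPG, a partner of ATF4 on this element, have matches in their windows as well and were at 1.30, 1.09 and 0.51, while SLC3A2 and SLC7A1 with matches were at -0.08 and -0.01.
For WARS1, 2 of 6 measured genes of the interferon-gamma response were above 0, both from a monolayer signal near the floor. These were CXCL10, from 68.9 to 135.7 (0.98), and IDO1, from 65.0 to 98.8 (0.60). The others were under 0. PSMB9, an immunoproteasome subunit, went from 479.1 to 260.6 (-0.88). TAP1 was at -0.28, IRF1 at -0.05 and GBP2, above the floor in monolayer only, at -0.21.

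**Figure D5:**
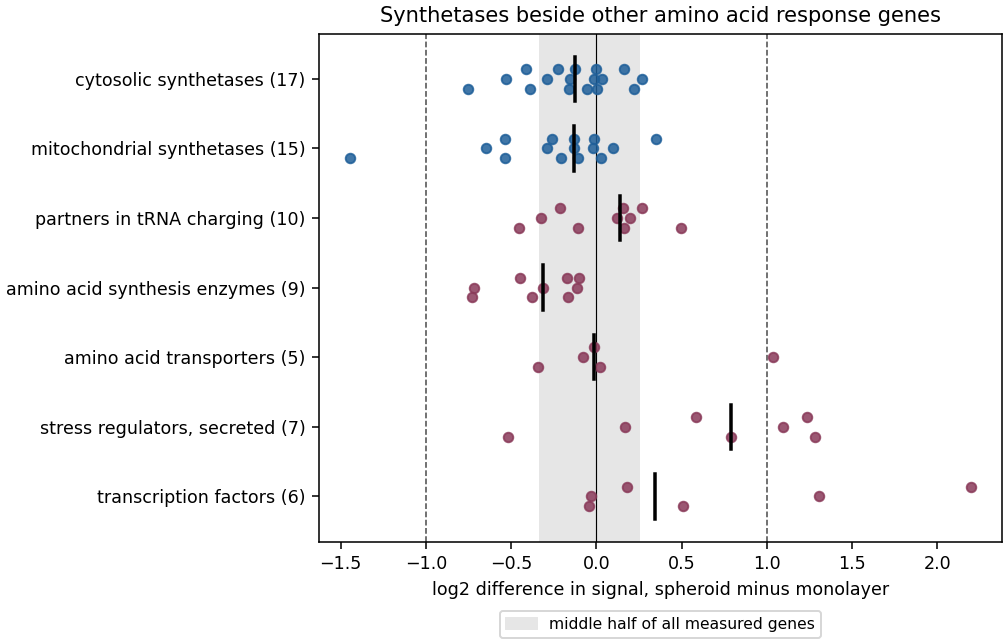
Log2 difference in signal between the spheroid and the monolayer array for measured genes (dots, number in parentheses) of the synthetase groups (blue) and of other groups around them (purple), with black bars at the medians, a grey band between the quartiles of all measured genes and dashed lines at 2-fold. The synthetases and the synthesis enzymes lie mostly within or left of the band, and 5 of the 6 genes 2-fold higher are transcription factors, stress regulators or secreted proteins.

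Arrays of whole cultures cannot separate fewer cells of a kind from less RNA per cell. Of 9 colon epithelium markers 8 were above the floor on at least 1 array, and the intestinal factor CDX1 was under it on both. The 8 did not move together, with 5 above 0 and 3 under it. EPCAM was at 21151 in monolayer and 22299 in spheroids (0.08), KRT20 at 1.13 and CDH1 at 0.42. CEACAM5 (0.75) and CDX2 (0.35) were above the floor in spheroids only. KRT18 was at -0.39, KRT8 at -0.33 and VIL1, above the floor in monolayer only, at -0.68. Of 9 markers of fibroblasts, leukocytes and endothelium 3 were above the floor, COL1A1 (1370 and 1972), PECAM1 (123.7 and 99.5) and COL1A2, which was at 64.9 in monolayer and under the floor in spheroids. PTPRC, CD3E, DCN, LUM and CDH5 were under it on both arrays. The part of these genes in the synthetase values was not tested.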

How the data were processed

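RNA of HT-29 monolayer cells and of HT-29 spheroids was hybridised to 1 Affymetrix Human Genome U133 Plus 2.0 array each. The deposited intensities are MAS5 signals that the authors computed in Affymetrix Expression Console, on a linear scale, for 54675 probe sets without detection calls. The methods speak of duplicates, and 1 array per condition was analysed here, which limits the precision.

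Probe sets were named through the platform annotation: 41097 have 1 gene, 1801 several and 11777 none listed. Gene numbers were updated to RefSeq symbols (41043 matched). Signals under the 50th percentile were set to it, log2 was taken, and each gene was represented by its brightest probe set (highest mean log2 signal over the arrays). No test was run, and the 2-fold limit is that of the methods. Members and lists were chosen with earlier results of these data known. All measured members are named, and of other lists ATF4, DDIT3, ASNS and genes with large differences. Others were named after their values were seen. Alternatives were other scalings, floors, a pseudocount of 15.9, other probe set choices and limits of 1.5-fold and 3-fold. The computation was tested on simulated data. Python 3.11.15, numpy 2.4.6, pandas 2.3.3, scipy 1.17.1 and matplotlib 3.10.9 were used.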

Additional observations from a re-analysis of the deposited data

How the results depend on the processing

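Scaling to the hybridisation spike-ins turned the median log2 difference of the cytosolic enzymes from -0.128 to 0.12 and that of the mitochondrial enzymes from -0.132 to 0.11, since it shifts every gene upward alike. Taking the median over the probe sets of a gene, where those under the floor on both arrays count as 0, gave a mitochondrial median of -0.015. The cytosolic minus the mitochondrial median was 0.0043 and changed sign with the probe set, to -0.10 with the median over probe sets and -0.052 with the largest difference, and was highest with quantile normalization (0.045). Cytosolic enzymes at least 2-fold lower numbered 0, and 1 at a 1.5-fold limit. Mitochondrial ones numbered 1, 2 at 1.5-fold, 0 at 3-fold and 0 with a floor at the 75th percentile of signals, where PARS2 is not measured. Of 33 single genes 13 kept one sign in all settings that measured them. Of these, 8 were lower (among them VARS1, YARS2, PARS2, SARS1 and NARS1) and 5 higher. No setting took the second probe set of SARS1 (0.27) alone, and that of VARS1 was under the floor, so their sign was hardly tried. No floor, the other floors and the shared probe sets left each measured single-gene value as it was, and a choice of probe set cannot move a gene that has 1. Both probe set choices moved YARS1 (0.19 with the median and 0.78 with the largest difference) and EARS2 (0.011 and 0.69). The 0.69 of EARS2 comes from a probe set under the floor in monolayer. Counting the probe sets that MARS1, QARS1 and TARS2 share with miRNA genes, an alternative added once the values had been seen, gave medians of -0.15 and -0.17. No paired analysis was possible because each condition has 1 array.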
